A study of Arabidopsis thaliana with 30 samples.

Results

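The response of root endodermis and quiescent center cells to low pH was taken from 6 of the 30 Affymetrix ATH1 arrays of the series, chosen by sample title, 3 at pH 4.6 and 3 at pH 5.7. All 22746 probe sets that are not Affymetrix controls were compared. Of these, 933 had a mean signal at least 4-fold higher on the stele arrays than on the endodermis arrays and are treated apart as the stele-high class, which leaves 21813. The cells came from Columbia seedlings of the marker line pSCR::GFP, in which the SCARECROW promoter drives a green fluorescent protein. Both groups grew for 5 days at pH 5.7. The pH 4.6 group then spent 24 h on medium of pH 4.6, and the pH 5.7 group spent 24 h on fresh medium of pH 5.7, and both of these media held 3 mM DMG, 1% sucrose and 1% agar. Roots were 6 days old when they were turned into protoplasts, and fluorescent cells were sorted from them. RNA passed through a two-cycle amplification before hybridisation. The labels do not say whether replicates came from separate cultures or sorts, and p-values therefore rest on a spread between arrays that could be technical only. The other 24 arrays, 6 for each of stele, cortex, epidermis with lateral root cap, and columella, came from other marker lines under the same media and serve here for comparison.

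The endodermis is the innermost layer of the ground tissue and surrounds the stele, the central cylinder with xylem and phloem. Its cell walls carry the Casparian strip, a lignin band that keeps solutes from passing between cells, so that ions and protons must cross a plasma membrane to reach the xylem. The quiescent center is a small group of slowly dividing cells at the root tip that maintains the stem cells around it, and the SCARECROW promoter is active in both. Acid medium steepens the gradient of pH across the plasma membrane, and root cells keep their cytoplasm near neutral with proton pumps and with changes in organic acid metabolism.

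Median signals of the 6 arrays lay between 55.2 and 57.8, within the 43.7 to 71.7 of all 30 arrays, and every array had the same trimmed mean of 250.0. Across probe sets, pH 4.6 replicate 1 correlated at 0.957 and 0.959 with the other pH 4.6 arrays, which correlated at 0.978 with each other. It correlated at 0.928 to 0.940 with the pH 5.7 arrays, whose own correlations were 0.967 to 0.973. The other pH 4.6 arrays correlated at 0.954 to 0.963 with the pH 5.7 arrays, about as closely as with replicate 1 of their own group. The array of pH 4.6 replicate 1 thus stood apart in its group, and counts without it are given beside the results that rest on it. Probe sets are not independent replicates, and with 3 arrays in a group precision is limited.

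Genes that mark the endodermis were bright on these arrays at both pH values. Of 25 listed endodermis genes 9 were measured, and 7 of the 9 were brightest, by mean signal, in endodermis among the 5 cell types. The exceptions were JKD, a zinc finger protein, and AT4G28100, which were highest in cortex. SCARECROW itself was not analysed here. The summed signal of the 9 genes was 31734, 51902 and 47678 on the pH 4.6 arrays, against 55529, 69841 and 63095 on the pH 5.7 arrays. All 3 pH 4.6 sums lay below all 3 pH 5.7 sums, and the stele arrays had 13177 to 22459. GSO1, the receptor kinase that seals the Casparian strip, had signals of 3008, 5973 and 5659 at pH 4.6 and 6901, 7232 and 6953 at pH 5.7. Replicate 1 was the lowest of the pH 4.6 arrays for 6 of the 9 genes. Among them the dirigent protein AT4G13580 had 6751, 13263 and 12042 at pH 4.6 and 12684, 16994 and 15065 at pH 5.7. None of the 9 genes passed the test with limma at an adjusted p below 0.05, and 6 had values at pH 4.6 that were all below those at pH 5.7, as had 12.9% of all probe sets. Their log2 changes ran from -0.87 for AT1G61590, a kinase placed at the Casparian strip domain, to 0.24 for JKD, with a median of -0.59. The median over all probe sets was -0.01. In cortex arrays, 6 of the 9 were called lower, where 4.99% of all probe sets were lower. In sorted bulk RNA, fewer cells of a type and less RNA per cell cannot be told apart.

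**Figure D1:**
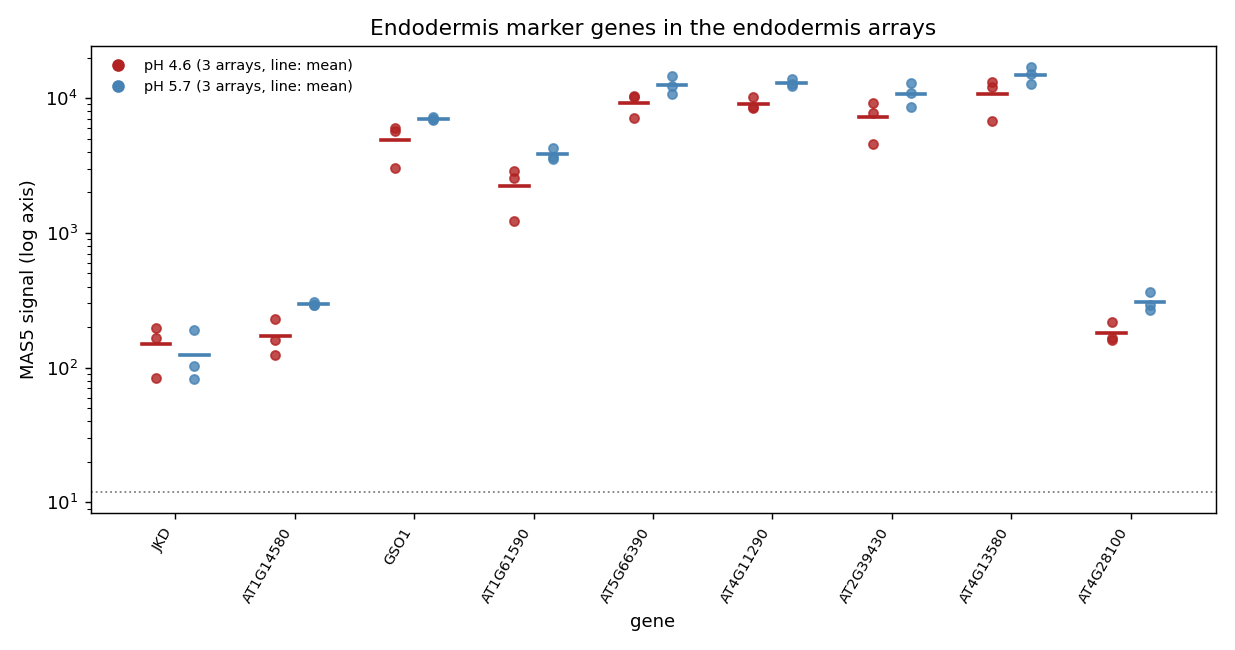
Signal of the 9 measured endodermis marker genes on the 6 endodermis arrays. Each point is an array, red for pH 4.6 and blue for pH 5.7, each short line is the mean of 3 arrays, the vertical axis is the MAS5 signal on a log scale, and the dotted line marks the pseudocount of 12. The dirigent gene AT4G13580 spans 6751 to 16994, and 6 genes have all pH 4.6 points below all pH 5.7 points.

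The quiescent center was less well covered. Only AGL42 and BBM of its 6 listed genes were measured. AGL42, a MADS-box factor, had signals of 39.4, 54.1 and 36.0 at pH 4.6 and 77.9, 62.0 and 60.2 at pH 5.7, and it was brighter in cortex than in endodermis. BBM, a factor of the root stem cell niche, had 31.7, 2.50 and 11.5 at pH 4.6 and 1.81, 2.33 and 1.22 at pH 5.7, so that only replicate 1 exceeded the pseudocount of 12 that was added to every signal. Neither passed the test (limma adjusted p = 0.279 and 0.0596). The quiescent center therefore could not be followed apart from the endodermis.

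Low pH changed 2556 of the 22746 probe sets in endodermis, or 11.2%, with 1472 higher (6.47%) and 1084 lower (4.77%) at pH 4.6. A change was called at a Benjamini-Hochberg adjusted p below 0.05 over all 22746 probe sets, in limma on log2 of signal plus 12. Of the calls, 676 higher (2.97%) and 543 lower (2.39%) were at least 2-fold. The 3 values at pH 4.6 lay all above or all below the 3 at pH 5.7 in 5869 probe sets (25.8%). Outside the stele-high class, 1462 probe sets were higher and 985 lower, which is 6.7% and 4.52% of 21813. Leaving out pH 4.6 replicate 1 gave 849 higher and 593 lower over all probe sets, and leaving out pH 5.7 replicate 2 gave 1040 and 659. The array annotation gave a single gene for 792 of the higher and 574 of the lower probe sets, and only those are named.

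The 2 largest rises were in genes listed for mitochondrial stress, which plant cells switch on when respiration is impaired, and 4 of the 14 largest were on that list. AT5G09570, a small twin-cysteine protein of mitochondria, had signals of 3889, 2468 and 2703 at pH 4.6 and 278, 282 and 243 at pH 5.7 (log2 change 3.41 ± 0.32 SE, limma adjusted p = 5.8e-08). AT2G21640 (UPOX), which is induced when mitochondria suffer oxidative stress, had 2245, 2428 and 1421 at pH 4.6 and 263, 210 and 134 at pH 5.7 (3.26 ± 0.28). The lowest pH 4.6 array thus exceeded the highest pH 5.7 array by far in both genes. AT2G41730, which responds to mitochondrial inhibitors, had 3478, 2573 and 2360 at pH 4.6 and 492, 283 and 354 at pH 5.7. NDB3, an external NAD(P)H dehydrogenase that feeds electrons into the respiratory chain without pumping protons, had 742, 437 and 563 at pH 4.6 and 114, 103 and 88.7 at pH 5.7 (2.35 ± 0.30). Its relative NDB4 was 1.78 ± 0.21 higher on the log2 scale, with 785 ± 153 at pH 4.6 and 218 ± 22.0 at pH 5.7 (SD, n = 3 each). Another external dehydrogenase, NDB2, had 2579, 3405 and 3894 at pH 4.6 and 3224, 2534 and 3977 at pH 5.7, groups that overlapped (0.02 ± 0.17, limma adjusted p = 0.962). AT2G04050, an efflux carrier of the MATE family, had 1728 ± 575 at pH 4.6 and 338 ± 68.4 at pH 5.7 (SD, n = 3 each). Of 22 listed mitochondrial stress genes 10 were measured, 7 rose and none fell, with a median log2 change of 2.03, beside 6.47% of all probe sets called higher. Besides NDB2, the small heat shock protein AT5G51440 (0.48) and the MATE carrier AT2G04070 (0.27) did not pass. The list was drawn up with earlier results of these arrays known, so its direction is not independent evidence.

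**Figure D2:**
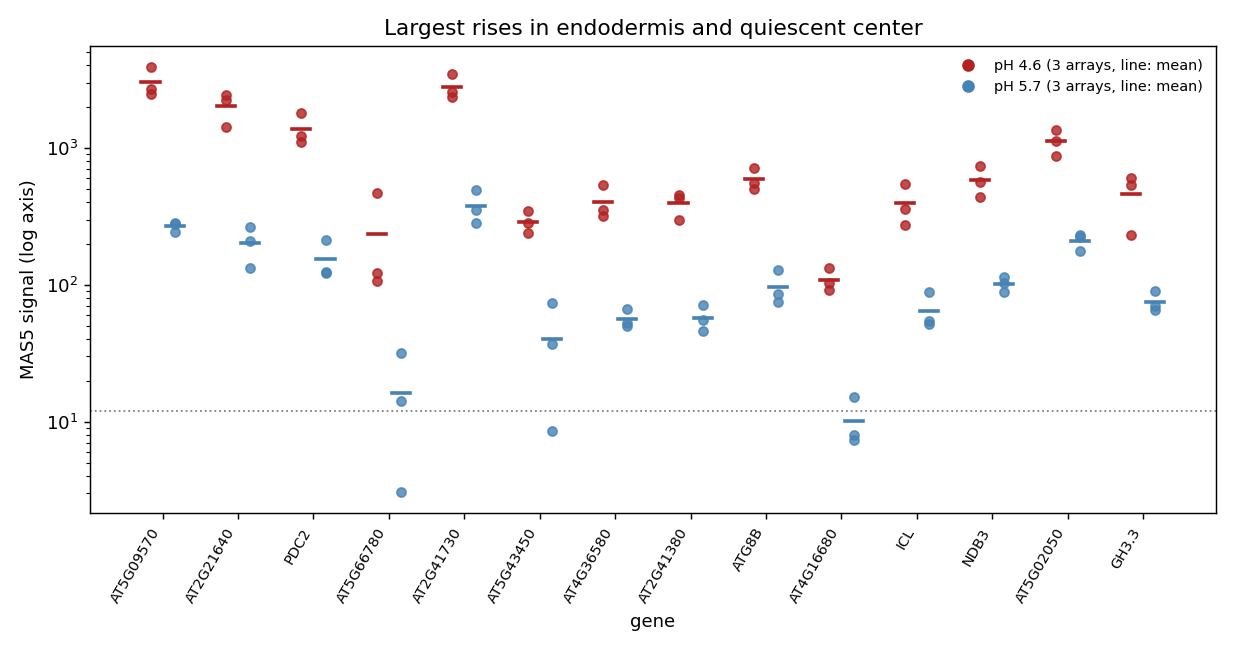
Signal of the 14 genes with the largest rises outside the stele-high class on the 6 endodermis arrays. Points are arrays, red for pH 4.6 and blue for pH 5.7, short lines are means of 3, the vertical axis is the MAS5 signal on a log scale, and the dotted line is the pseudocount of 12. Every pH 4.6 point of a gene lies above all its pH 5.7 points, and AT5G66780 and AT4G16680 reach or fall below the dotted line at pH 5.7.

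Genes of fermentation and of organic acid metabolism were among the risen genes as well. PDC2, a pyruvate decarboxylase of the ethanol pathway, had 1229, 1793 and 1104 at pH 4.6 and 124, 214 and 123 at pH 5.7 (3.08 ± 0.29, limma adjusted p = 6.2e-08). Lactate dehydrogenase, AT4G17260, had 1017, 1688 and 1365 at pH 4.6 and 772, 633 and 702 at pH 5.7, a smaller rise of 0.91 ± 0.19. Its call was lost in a fit to the 6 endodermis arrays alone (limma adjusted p = 0.0515). AT3G10040, a hypoxia response factor (HRA1), had 22.8, 17.4 and 8.19 at pH 4.6 and 2.49, 2.47 and 4.33 at pH 5.7, around and below the pseudocount, and its call (limma adjusted p = 0.0469) was lost in 10 alternatives. Of 23 listed hypoxia and fermentation genes 8 were measured, and these 3 rose and none fell, beside 6.47% and 4.77% of all probe sets, with a median log2 change of 0.13. The 5 other measured members are hypoxia response genes, and their changes of -0.41 to 0.26 did not pass. ICL, isocitrate lyase of the glyoxylate cycle, had 547, 356 and 275 at pH 4.6 and 51.5, 54.0 and 88.5 at pH 5.7 (2.38 ± 0.29). It was one of 2 measured genes among 19 listed for organic acid and GABA metabolism, and the other, PPDK, did not pass (0.35 ± 0.33).

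Of the 4 measured GH3 genes on the auxin list, a family of hormone conjugating enzymes, GH3.3 and GH3.17 rose, while GH3.1 (-0.57, limma adjusted p = 0.265) and WES1 (-0.47, limma adjusted p = 0.388) did not pass the test. GH3.3, which joins auxin to amino acids, had 231, 540 and 606 at pH 4.6 and 89.6, 69.9 and 65.8 at pH 5.7 (2.33 ± 0.43, limma adjusted p = 0.000531). Replicate 1 was the lowest of its pH 4.6 arrays and still above every pH 5.7 array. GH3.17, of the same family, had 198, 477 and 439 at pH 4.6 and 119, 182 and 216 at pH 5.7. The groups overlapped, and its call (1.00 ± 0.29, limma adjusted p = 0.0216) was lost without pH 4.6 replicate 2, without pH 4.6 replicate 3 and without pH 5.7 replicate 1. Of 23 listed auxin genes 9 were measured, 2 rose and none fell, beside 6.47% and 4.77% of all probe sets, and their median log2 change was -0.32. LBD16, a factor of lateral root founding, had 97.8, 130 and 185 at pH 4.6 and 164, 349 and 260 at pH 5.7 (-0.83 ± 0.36, limma adjusted p = 0.142).

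The other genes with the largest rises had roles in autophagy, stress protection and enzyme reactions. ATG8B, which coats autophagosome membranes, had 718, 498 and 555 at pH 4.6 and 85.9, 128 and 75.6 at pH 5.7 (2.49 ± 0.25). AT5G66780, a late embryogenesis abundant protein, had 472, 107 and 123 at pH 4.6 and 31.8, 14.2 and 3.09 at pH 5.7, so that replicate 1 was the highest array at either pH. AT2G41380, a methyltransferase, had 298, 429 and 454 at pH 4.6 and 70.9, 55.0 and 45.8 at pH 5.7 (2.54 ± 0.24). AT4G36580, an AAA-type ATPase, rose by 2.57 ± 0.28, AT5G02050, of a mitochondrial glycoprotein family, by 2.34 ± 0.27, and AT5G43450, a dioxygenase, by 2.75 ± 0.51 on the log2 scale. AT4G16680 had 132, 103 and 91.8 at pH 4.6 and 7.98, 15.1 and 7.33 at pH 5.7. For these near-background genes the log2 change understates the ratio of signals. F6'H1 (AT3G13610), which makes a precursor of coumarins used in iron acquisition, had 363, 593 and 499 at pH 4.6 and 216, 122 and 206 at pH 5.7 (1.37 ± 0.34). It was the only one of 7 measured iron and coumarin genes, of 33 listed, to pass, beside 6.47% of all probe sets higher and 4.77% lower. F6'H1 did not pass without pH 5.7 replicate 2 (limma adjusted p = 0.0622).

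Among enzymes that attach sugars or glutathione to small molecules, the counts are read beside the 6.47% of all probe sets that were higher and the 4.77% that were lower. Of 47 UGT genes, which transfer sugars to hormones and to phenolic compounds, 8 rose and 1 fell, with a median log2 change of 0.03. UGT76E11 had 178 ± 41.0 at pH 4.6 and 52.7 ± 5.62 at pH 5.7, and UGT73C7 had 276 ± 72.5 at pH 4.6 and 103 ± 40.7 at pH 5.7 (SD, n = 3 each). UGT71C4 was lower, at 964 ± 210 against 1594 ± 77.6, a call lost in a fit to the arrays compared alone. Among the risen UGT genes, UGT73B5 lost its call in 8 of 16 alternatives, UGT87A2 in 4, and UGT85A2 and UGT71C2 in 3 each. UGT76E11 lost it with a pseudocount of 1, while UGT73C7, UGT73C1 and UGT84A3 kept theirs under every alternative. The GST family of glutathione transferases had 13 measured genes, of which 2 rose and 1 fell. GSTU22 reached 2990 ± 282 at pH 4.6, against 1578 ± 169 at pH 5.7, and GSTU25 reached 9060 ± 562 against 6018 ± 788. The GSTU25 call was lost in a fit to the arrays compared alone. GSTU26 went the other way, at 363 ± 53.8 at pH 4.6 and 1308 ± 329 at pH 5.7 (SD, n = 3 each; -1.79 ± 0.22 SE). Of 26 genes with a CYP symbol, 24 are cytochrome P450 genes, of which 1 rose and 2 fell, and the other 2, CYP59 and CYP71, are cyclophilins. CYP84A4 was the largest of these changes, with 260, 274 and 229 at pH 4.6 and 974, 639 and 576 at pH 5.7 (-1.44 ± 0.21). The rise was in CYP71B6, with groups that overlapped, and its call (limma adjusted p = 0.0488) was lost in 10 of 16 alternatives. The other fall, in CYP71B34, lost its call in 9 of 16.

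The 14 genes with the largest falls included lipid transfer proteins, transporters and wall enzymes. AT3G53980, of the lipid transfer protein family, had 85.9, 108 and 124 at pH 4.6 and 611, 1208 and 1088 at pH 5.7 (-3.01 ± 0.39, limma adjusted p = 8.76e-06). A second member of that family, AT1G48750, had 178, 419 and 524 at pH 4.6 and 1009, 2519 and 2196 at pH 5.7 (-2.34 ± 0.36). In both genes the replicate 1 arrays were the lowest of their pH. SWEET17, a fructose carrier of the vacuole membrane, had 48.7, 60.4 and 73.8 at pH 4.6 and 593, 464 and 464 at pH 5.7 (-2.84 ± 0.26, limma adjusted p = 5.8e-08). AT3G45700, the anion transporter NPF2.4, had 116, 341 and 238 at pH 4.6 and 960, 1707 and 1637 at pH 5.7 (-2.64 ± 0.46). AT2G16980, of the major facilitator carriers, had 213, 339 and 302 at pH 4.6 and 1355, 1311 and 1090 at pH 5.7, and it was the only fallen gene of this set whose highest mean was in endodermis. AT5G05250 had 17.8, 5.58 and 39.5 at pH 4.6 and 183, 234 and 160 at pH 5.7, so that its pH 4.6 signals reached the pseudocount.

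GH9B13, an endoglucanase that acts on wall glucans, had 204, 144 and 146 at pH 4.6 and 1372, 1452 and 782 at pH 5.7 (-2.75 ± 0.25, limma adjusted p = 3.36e-08). AT4G11210, a dirigent protein of the group that guides lignin and lignan coupling, had 66.4, 94.2 and 164 at pH 4.6 and 441, 620 and 487 at pH 5.7. XTH21, which cuts and rejoins xyloglucan, had 404 ± 128 at pH 4.6 and 1313 ± 300 at pH 5.7 (SD, n = 3 each), and it was the only one of 9 measured XTH genes to pass. Of 18 expansin and expansin-like genes, which loosen walls, EXLB1 (-1.68 ± 0.39) and EXPB1 (-0.83 ± 0.26) fell and none rose, beside 4.77% of all probe sets lower and 6.47% higher. With a pseudocount of 1 neither XTH21 nor EXLB1 passed, and EXPB1 did not pass in 9 alternatives. Other large falls were the terpenoid cyclase AT3G32030 (-2.29 ± 0.38), and the vacuolar calcium-binding related genes AT3G59370 (-2.33 ± 0.34) and AT1G12080 (-2.28 ± 0.33). The defensin-like peptide gene AT4G22212 had 78.5, 79.2 and 149 at pH 4.6 and 634, 1228 and 848 at pH 5.7. AT5G54370 fell by 2.31 and AT4G39675 by 2.14 on the log2 scale.

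**Figure D3:**
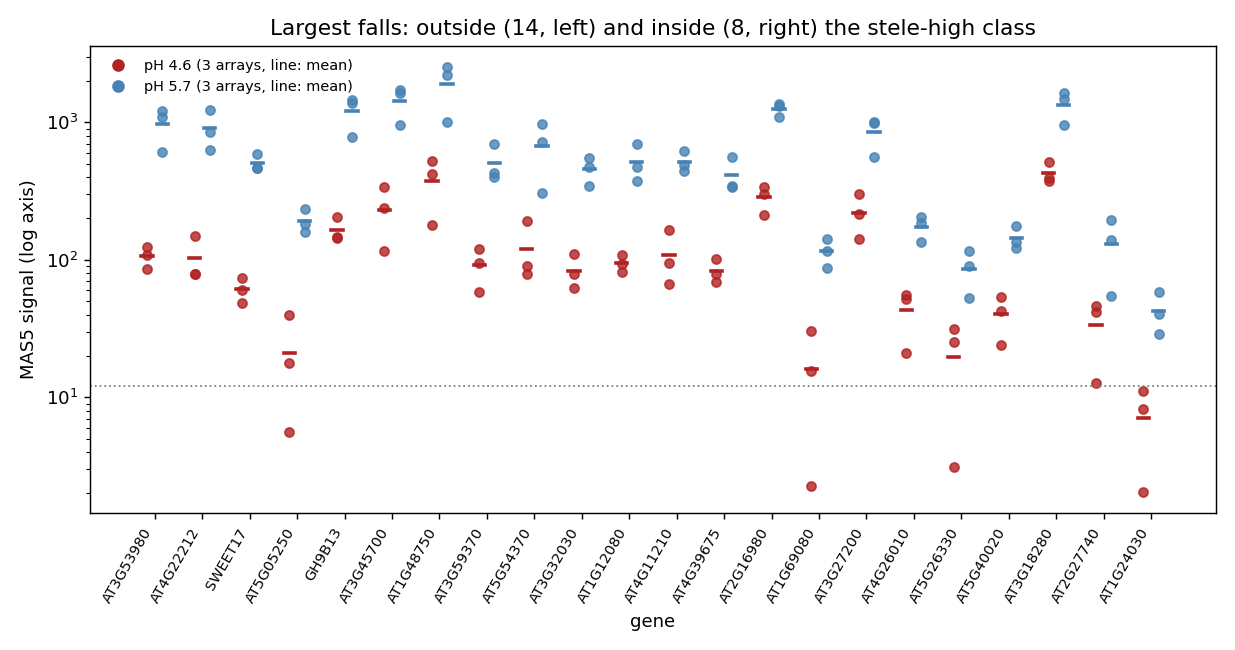
Signal of the 14 genes with the largest falls outside the stele-high class (left) and of the 8 with the largest falls inside it (from AT1G69080 rightwards) on the 6 endodermis arrays. Points are arrays, red for pH 4.6 and blue for pH 5.7, short lines are means of 3, the vertical axis is the MAS5 signal on a log scale, and the dotted line is the pseudocount of 12. Every pH 4.6 point of a gene lies below all its pH 5.7 points, and several stele-high genes reach the dotted line at pH 4.6.

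Few genes of proton transport and proton tolerance were measured. Of 31 listed vacuolar proton pump and exchanger genes 9 were measured, 2 fell and none rose, beside 4.77% and 6.47% of all probe sets, and all 9 log2 changes were below 0, from -0.58 to -0.07. AT4G02620, subunit F of the vacuolar ATPase, had 1714, 2273 and 2019 at pH 4.6 and 2953, 3175 and 2848 at pH 5.7 (-0.58 ± 0.15), and it did not pass without pH 4.6 replicate 1. AT5G55290, subunit e1, had 1179, 1142 and 1164 at pH 4.6 and 1761, 1525 and 1868 at pH 5.7 (-0.55 ± 0.13). The 2 calls were lost in a fit to the 6 endodermis arrays alone. AT1G51340, a citrate efflux carrier and the only measured gene of 12 listed for proton tolerance, did not pass (0.03 ± 0.39). The lists of plasma membrane proton pumps (10 genes) and aquaporins (25 genes) had no measured member, as the annotation named none of them for a probe set of its own. Such genes may still be on the arrays, among the 8730 probe sets without a gene in the annotation or the 503 with several. None passed among 2 measured suberin genes, 2 phosphate starvation genes, 2 cell division genes, 6 WRKY genes and 1 NAC gene, beside 11.2% of all probe sets. The HSP, NPF, ABC, MYB and ERF families had no member with such a symbol in the annotation, so their genes were measured, if at all, under locus names or other symbols.

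In the stele-high class 10 probe sets were called higher (1.07%) and 99 lower (10.6%), beside 6.7% and 4.52% of the other 21813. The median log2 change of the class was -0.272, and that of all probe sets was -0.011. Of the 99 lower probe sets, 97 had a stele mean of at least 100, where 15.8% of 612 were lower, and 2 were among the 321 dimmer ones. Without pH 4.6 replicate 1 the count was 52, and without pH 5.7 replicate 2 it was 55. The class was defined with the same endodermis arrays, so a low signal at pH 4.6 also raises the ratio that defines it. By the pH 5.7 arrays alone the class had 1052 probe sets, with 31 higher (2.95%) and 75 lower (7.13%) and a median of -0.049. Probe sets just outside the limit included AT1G10750 and ATSBT5.2, with ratios of 3.995 and 3.998, and those just inside included AT2G02690 and AT5G26270, with 4.004 and 4.027. None of these 4 was called. Falls in the class were not particular to endodermis. Of the 933 probe sets, 149 were called lower in stele, 83 in cortex, 150 in epidermis and 96 in columella. Of all probe sets, 1.86%, 4.99%, 2.12% and 7.65% were lower there. The median log2 changes of the class in these 4 cell types were -0.421, -0.159, -0.305 and -0.116.

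The class was not made up of genes of the stele alone. Only 247 of its 933 probe sets had their highest mean in stele, 569 had it in epidermis, 91 in columella and 26 in cortex. Among the 247, 1 was higher and 39 lower in endodermis (15.8%), with medians of -0.45 in endodermis and 0.17 in stele. Among the 569, 7 were higher and 53 lower in endodermis (9.31%), and the medians were -0.247 in endodermis, -0.667 in stele and -0.465 in epidermis. This split was chosen after the values were seen. The 4 measured stele marker genes, of 33 listed, summed to 628, 285 and 390 at pH 4.6 and 340, 418 and 317 at pH 5.7, and the groups overlapped. PHV and OPS of these were highest in columella, and LHW and AT5G02460 in stele, so few defining stele markers were available. The 2 epidermis markers, EXPA7 and EXPA18, summed to 24, 43 and 40 at pH 4.6 and 17, 163 and 42 at pH 5.7, against 548 to 3303 on stele arrays. The 4 cortex markers summed to 105, 96 and 139 at pH 4.6 and 180, 230 and 225 at pH 5.7, without overlap. AT3G21670, the nitrate transporter NPF6.4, was the only one of these called lower, from signals of 3.00 to 5.28 at pH 4.6 and 23.4 to 30.0 at pH 5.7. The cortex marker AT1G62500 went the other way (0.27 ± 0.34) with groups that overlapped, and it was highest in endodermis. The largest part of the cortex sums came from AT1G62510, with means of 64.2 at pH 4.6 and 119 at pH 5.7. The part of RNA from neighbouring cells in the falls was not tested.

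Calls in endodermis were also counted by the stele to endodermis ratio below the limit of the class. The ratio rests on the same endodermis arrays as the calls, so that a change in endodermis itself moves a probe set to another range of ratios, upwards for a fall where the pH 4.6 arrays count and downwards for a high pH 5.7 signal. Among probe sets whose brighter mean was at least 100, with the ratio from all 6 arrays of each cell type, those with ratios of 0.5 to 1 were called higher in 18.9% and lower in 5.26% of 4939. For ratios of 2 to 4, 3.26% of 613 were higher and 21.2% lower, and from 4 to 8 the values were 1.05% and 14.7% of 285. With the ratio from the pH 5.7 arrays alone, a setting chosen after the values were seen, ratios of 0.5 to 1 had 12.1% higher and 7.39% lower of 4412. Ratios of 2 to 4 had 5.71% higher and 15.8% lower of 595, and ratios of 4 to 8 had 9 higher and 39 lower (13.7%) of 284. Ratios under 0.25, where endodermis is the brighter, then had 3.7% higher and 13.8% lower of 189, so that a surplus of lower calls stood at both ends of the range. At ratios of 1 to 2 the order turned, with 4.42% higher and 9.51% lower by all arrays and 10.7% higher and 8.08% lower by the pH 5.7 arrays. Neither ratio is independent of the calls.

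**Figure D4:**
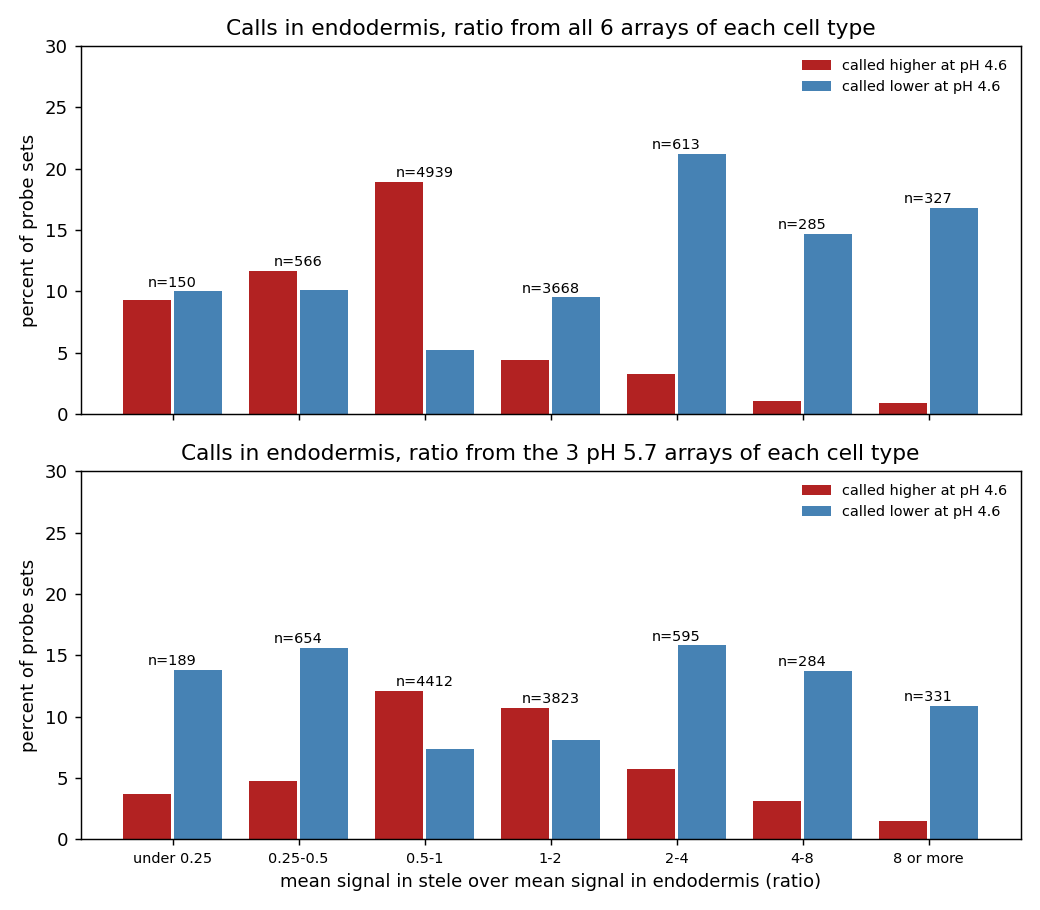
Percent of probe sets called higher (red) and lower (blue) at pH 4.6 in endodermis, by the ratio of the mean signal in stele to the mean signal in endodermis, from all 6 arrays of each cell type (top) and from the 3 pH 5.7 arrays (bottom). Each pair of bars is a range of ratios with its number of probe sets, limited to those whose brighter mean is at least 100. At ratios of 2 to 4 lower calls make up 21.2% in the top panel and 15.8% in the bottom one, and at ratios of 1 to 2 the order of the bars turns between the panels.

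Within the class, AT1G69080 had the largest fall, with signals of 2.27, 15.7 and 30.2 at pH 4.6 and 117, 142 and 87.1 at pH 5.7 (-2.29 ± 0.38). Its mean was 6.42-fold higher in stele. The cupredoxins AT3G27200 and AT5G26330, copper proteins of the cell surface, fell by 1.91 and 1.71 on the log2 scale. AT3G18280, a lipid transfer protein, had 376, 392.1 and 518 at pH 4.6 and 948, 1628 and 1467 at pH 5.7 (-1.60 ± 0.27, limma adjusted p = 0.000198). The groups stayed far apart at signals well above background. AT4G26010, a peroxidase, had 21.0, 51.9 and 55.9 at pH 4.6 and 204, 135 and 184 at pH 5.7, and it was highest in epidermis, where the other 7 named fallen genes of the class were highest in stele. The others were the thaumatin-like AT5G40020 (-1.61 ± 0.33), AT2G27740 (-1.58 ± 0.39) and the kinase AT1G24030 (-1.51 ± 0.35). None of these 8 genes was called in stele, and the difference from the stele response passed for AT1G69080 and AT3G18280. Of all 99 lower probe sets of the class, however, 27 were also called lower in stele (27.3%), beside 1.86% of all probe sets. The calls of AT5G26330 and AT2G27740 were lost without pH 4.6 replicate 1 and without pH 5.7 replicate 2, and that of AT4G26010 without pH 4.6 replicate 1. In the other direction, STR18, a sulfurtransferase, had 259, 224 and 225 at pH 4.6 and 100, 152 and 87.2 at pH 5.7 (1.02 ± 0.18). UGT71C2, the glycosyltransferase AT3G55700 and AT4G02180 were also higher, at signals of 9.52 to 47.9 at pH 4.6 and 1.27 to 15.0 at pH 5.7. The calls of STR18, UGT71C2, AT3G55700 and AT4G02180 were each lost in a fit to the arrays compared alone.

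The same test called 1060 probe sets in stele (4.66%), 2951 in cortex (13.0%), 1485 in epidermis (6.53%) and 3334 in columella (14.7%). Many of the genes that rose in endodermis were among them. Each change came from arrays of its own, but the spread of a probe set was estimated once from all 30 arrays. Calls in different cell types are therefore not independent of each other. Of the 1472 higher probe sets, 986 were also called higher in cortex (67.0%, and 54.3% of the cortex calls), where 7.98% of all probe sets were higher. In columella 575 were higher (39.1%), in epidermis 517 (35.1%) and in stele 406 (27.6%), beside 7.01%, 4.41% and 2.8% of all probe sets. All 4 other cell types shared 172 (11.7%), and 331 (22.5%) were called in none of them. Of the 1084 lower probe sets, 449 were lower in cortex (41.4%), 225 in columella (20.8%), 129 in epidermis and 129 in stele (11.9% each), beside 4.99%, 7.65%, 2.12% and 1.86% of all. All 4 shared 12 (1.11%), and 469 (43.3%) were called lower in none. Whether the 2 directions differ in sharing was not tested. Of the lower probe sets, 27.2% had their highest mean in stele, as did 2.11% of the higher and 13.0% of all probe sets.

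Among the named genes, 13 of the 14 risen were called higher in cortex, 11 in stele, 10 in columella and 9 in epidermis, and 7 in all 4. AT5G09570 had log2 changes of 3.41 in endodermis, 3.86 in stele, 3.93 in cortex, 3.12 in epidermis and 3.52 in columella. PDC2 had 3.08 in endodermis, 2.38 in stele, 3.03 in cortex and 2.69 in epidermis, and -0.32 in columella. NDB3 had 2.35 in endodermis, 2.27 in stele and 1.86 in cortex, and 0.43 and 0.38 in epidermis and columella. GH3.3 had 2.33 in endodermis and -0.01 to 0.69 in the others, but its difference from their mean did not pass (1.90 ± 0.48, limma adjusted p = 0.0642). None of the 14 risen genes passed the test of difference from that mean. AT2G41380 alone of them differed from stele, by 1.68 ± 0.34 (limma adjusted p = 0.0191). Of the 14 fallen genes, 8 were called lower in cortex, 5 in stele, 5 in epidermis and 3 in columella, and none in all 4. Their highest mean was in stele for 9.

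The endodermis response was tested against the mean of the other 4 responses in the same model, and 123 probe sets differed (0.541%), 31 more positive (0.136%) and 92 more negative (0.404%). At an unadjusted p under 0.05 there were 2501 (11.0%). The count was 26 without pH 5.7 replicate 2 and 78 without pH 4.6 replicate 1. Against stele alone 99 differed (0.435%), 38 more positive and 61 more negative. That count was 5 without stele pH 5.7 replicate 2, 219 without stele pH 5.7 replicate 1, 17 without endodermis pH 4.6 replicate 1 and 30 without endodermis pH 5.7 replicate 2, and a fit to the arrays compared alone gave 4.

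SWEET17 was among the clearest. Its log2 change was -2.84 in endodermis, against -0.78 in stele, -1.14 in cortex, -0.65 in epidermis and -0.50 in columella, a difference from their mean of -2.07 ± 0.29 (limma adjusted p = 0.000519). SWEET14, a sugar carrier of the plasma membrane, had signals of 13.0, 4.62 and 27.8 at pH 4.6 and 90.7, 83.2 and 74.6 at pH 5.7. Its change was -1.89 ± 0.27 in endodermis and -0.19 to 0.20 in the others (difference -1.84 ± 0.30). AT3G53980, AT3G59370, AT4G39675 and AT1G69080 were also more negative, by -2.40, -2.03, -1.84 and -2.37. AT3G53980, AT3G59370 and AT4G39675 lost this call without pH 5.7 replicate 2 and with a pseudocount of 1, which also ended the calls of AT1G69080 and SWEET14, and AT4G39675 lost it without pH 4.6 replicate 1 as well.

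In a further pair of genes the difference came with changes above 0 elsewhere. LPR2, a multicopper oxidase of the root response to phosphate, had 244, 298 and 303 at pH 4.6 and 390, 499 and 358 at pH 5.7 in endodermis. This change did not pass (-0.54 ± 0.23, limma adjusted p = 0.139), while its log2 changes in the other cell types ran from 0.67 in stele to 1.83 in columella, a difference of -1.87 ± 0.26 (limma adjusted p = 0.000517). AT1G05060 had 109, 129 and 154 at pH 4.6 and 132, 108 and 60.4 at pH 5.7 in endodermis, groups that overlapped. Its change of 0.39 ± 0.26 stood against 1.56 in stele, 1.63 in cortex, 1.20 in epidermis and 4.85 in columella (difference -1.92 ± 0.29). LPR1, a relative of LPR2, did not pass in endodermis (0.64 ± 0.36).

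AT1G54120, a gene without an assigned function in the annotation used, was the clearest in the positive direction. It had 568, 546 and 483 at pH 4.6 and 152, 155 and 92.9 at pH 5.7, a change of 1.93 ± 0.22. In stele, cortex, epidermis and columella the changes were -0.09, -0.74, -0.40 and 0.34, and the difference was 2.16 ± 0.25 (limma adjusted p = 3.29e-05). The kinase AT3G01490 had 53.9, 85.5 and 101 at pH 4.6 and 11.0, 4.20 and 21.3 at pH 5.7 (difference 1.84 ± 0.36). GH3.17 also differed (1.36 ± 0.32, limma adjusted p = 0.0444), a call lost in 6 of 15 alternatives, with changes of -0.26 to -0.50 in the other cell types. AT5G45320, AT3G55700, AT4G13990, AT2G20030 and AT1G80960 differed by 1.37 to 1.69, all with signals at pH 5.7 of 12.1 or less in endodermis. AT4G37950, a rhamnogalacturonate lyase by annotation, differed by 1.53 at signals of 0.867 to 20.5, where its own endodermis change was -0.02 ± 0.33, and a second probe set of the gene had -0.37 ± 0.45. Without pH 5.7 replicate 2 the difference calls of GH3.17, AT3G01490, AT5G45320, AT3G55700, AT4G13990, AT2G20030, AT1G80960 and AT4G37950 were all lost. Over all alternatives, AT4G37950 lost its call in 8 of 14, AT2G20030 in 7 of 14, AT1G80960 in 4 of 15 and AT3G55700 in 3 of 15. AT3G01490 and AT5G45320 lost theirs with a pseudocount of 1 as well.

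**Figure D5:**
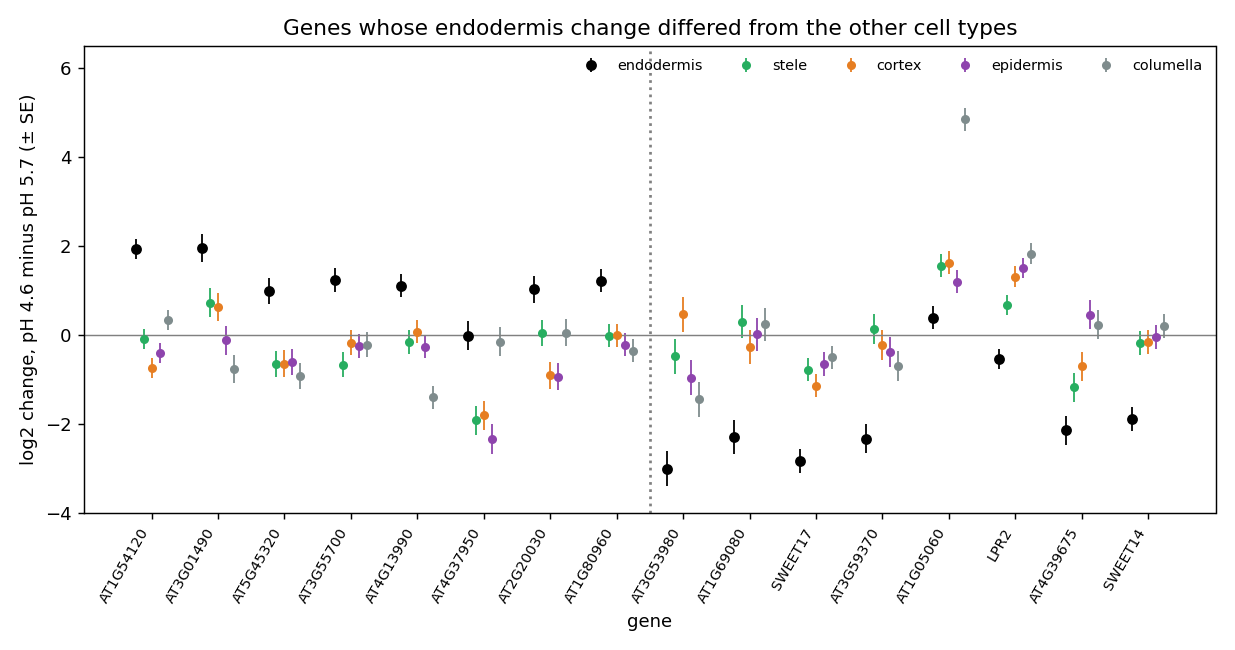
Log2 change at pH 4.6 minus pH 5.7 with its standard error, in endodermis (black), stele (green), cortex (orange), epidermis (purple) and columella (grey), for the 8 genes most positive (left of the dotted line) and the 8 most negative (right of it) in endodermis against the mean of the other 4. SWEET17 and SWEET14 lie lowest in endodermis among the 5 cell types, and LPR2 and AT1G05060 lie above 0 in the other 4, with AT1G05060 at 4.85 in columella.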

How the data were processed

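The deposited table holds a linear intensity for each probe set, computed by the authors with MAS5, per the submitters' processing notes, with no version or genome build given in the sources used here. No coordinates or sequences are given. Of 22810 probe sets, 64 Affymetrix controls were left out, and no filter was set on low signals. Of the other 22746, the array annotation gave a single gene for 13513, several for 503 and none for 8730, and 13436 of the single genes matched TAIR10.1 (RefSeq), used for names alone. A measured gene is one with such a probe set. Genes without a symbol are given by locus.

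Signals were taken to log2 after adding 12. limma 3.58.1 in R 4.3.3 fitted all 30 arrays with a mean per cell type and pH and an intensity trend, with 20 residual degrees of freedom and 7.7 from the prior. The low pH contrast of a cell type was pH 4.6 minus pH 5.7, and tests were also made of the endodermis contrast minus that of stele and minus the mean of the other 4. Tests were two-sided, with Benjamini-Hochberg adjustment over all probe sets. A fold is 2 raised to that log2 change. In simulated endodermis data with 50 genes changed at each size among 22746 probe sets, 52% of 2-fold and 94% of 4-fold changes were recovered, with 12 false calls. The simulated noise was independent and normal, with the same spread of a probe set on every array, and no other probe set changed. No simulated array stood apart as pH 4.6 replicate 1 does, so these rates need not hold for the real arrays.

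Genes were named by a rule: the 14 largest rises and 14 largest falls among calls whose 3 and 3 values did not overlap, 8 falls and 4 rises of the stele-high class by the same rule, the 8 most positive and 8 most negative differences from the other cell types, up to 4 called members of each list, and markers. Called members of families and lists outside that rule, and the genes at the limit of the class, are also given. The samples, lists and rule were chosen with earlier results of these data known. Replicate numbers are shared between the pH values, but the deviations of same-numbered arrays correlated at 0.077, -0.098 and 0.139, so no pairing was used. Alternatives covered the pseudocount, scaling, filters, a replicate block, moderation, array weights, the definition of the stele-high class and leaving out arrays.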

Additional observations from a re-analysis of the deposited data

Results flagged for a closer look

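The endodermis response differed from that of other cell types for 22 named genes, by the test of the difference itself in limma across all arrays (adjusted p below 0.05). All values are differences of log2 changes, endodermis minus the others, and no explanation was tested.

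Against the mean of the other 4 cell types, the lipid transfer family gene AT3G53980 differed by -2.40, AT1G69080 by -2.37, SWEET17 by -2.07, AT3G59370 by -2.03, AT1G05060 by -1.92, LPR2 by -1.87, AT4G39675 by -1.84 and SWEET14 by -1.84. GH9B13 differed by -1.74, AT1G12080 by -1.62 and AT3G18280 by -1.48. In the positive direction AT1G54120 differed by 2.16, AT3G01490 by 1.84, AT5G45320 by 1.69, AT3G55700 by 1.56, AT4G13990 by 1.55, AT4G37950 by 1.53, AT2G20030 by 1.47, AT1G80960 by 1.37 and GH3.17 by 1.36. Of these 20 genes, 13 lost the call without pH 5.7 replicate 2, and AT1G54120, SWEET17, LPR2, AT1G05060 and GH9B13 kept it under every alternative run.

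Against stele alone, AT1G69080 differed by -2.59, AT3G53980 by -2.54, AT3G59370 by -2.47, AT5G05250 by -2.30, AT1G12080 by -2.25, SWEET17 by -2.06, AT3G18280 by -1.82 and SWEET14 by -1.71. AT1G54120 differed by 2.02, AT3G55700 by 1.91 and AT2G41380 by 1.68. These calls against stele were not followed gene by gene under the alternatives. The whole count of 99 probe sets fell to 5 without stele pH 5.7 replicate 2 and to 4 in a fit to the arrays compared alone.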

How the results depend on the processing

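Of the 47 genes named by rule with a called change in endodermis, 34 kept their calls and direction under every alternative, 13 lost their calls under at least 1, and none reversed. Of 28 further called members of lists and families, 19 lost their calls under at least 1 and none reversed. In a fit to the arrays compared alone, which has fewer residual degrees of freedom, 447 probe sets were higher and 376 lower, 442 and 348 outside the stele-high class, 28 stele-high probe sets were lower, and 4 differed from stele. With a pseudocount of 1 the differences from the other 4 cell types and from stele numbered 47 and 28, and with a pseudocount of 50 they numbered 301 and 296. With calls limited to at least 2-fold, 676 were higher and 543 lower, and 667 and 467 outside the class. Leaving out an array in turn gave 849 to 1444 higher, 593 to 1001 lower, 837 to 1437 and 541 to 919 outside the class, 52 to 103 stele-high lower, 26 to 116 different from the other 4, and 5 to 219 different from stele. The low ends came without pH 4.6 replicate 1, except for the 26, which came without pH 5.7 replicate 2, and the 5. Without pH 5.7 replicate 2 659 were lower, 604 of them outside the class, 55 stele-high probe sets were lower and 30 differed from stele. Without pH 4.6 replicate 1, 78 differed from the other 4 and 17 from stele. The stele arrays set the rest of the range against stele, with 26, 61 and 37 without pH 4.6 replicates 1, 2 and 3 and 219, 5 and 9 without pH 5.7 replicates 1, 2 and 3. The causes were not tested. Under quantile normalization, equal medians, filters, robust moderation, array weights and the other definitions of the class, every count stayed within 1.5 times its value. With replicate number as a block there were 1448 higher, 1078 lower, 108 stele-high lower, 94 different from the other 4 and 87 from stele. Signals near 12 or below limit what can be said of dim genes.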

Other observations

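Gene families with at least 8 measured genes by symbol, 26 in number, were counted after the values were seen, and they carry no test as families. TBL and SWEET were picked from these with the counts known, and ATG8, with 7 genes, was added by name. Of 22 TBL genes, which act in the acetylation of wall polysaccharides, 6 were lower at pH 4.6 and none higher, with a median log2 change of -0.51, where 4.77% of all probe sets were lower. TBL19 had 330, 523 and 372 at pH 4.6 and 1192, 1426 and 1062 at pH 5.7, and TBL30 had 576, 2285 and 1121 at pH 4.6 and 2928, 3337 and 4370 at pH 5.7. Each of the 6 lost its call under at least 1 alternative, TBL19 with a pseudocount of 1 and TBL30 without pH 4.6 replicate 1.

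Of 14 SWEET sugar carriers, SWEET17 and SWEET14 were lower and SWEET8 higher, beside 4.77% and 6.47% of all probe sets. SWEET8 had 44.3, 61.8 and 75.4 at pH 4.6 and 15.6, 5.81 and 32.7 at pH 5.7 (1.35 ± 0.31), and its call was lost without pH 5.7 replicate 2. Of 7 ATG8 genes of autophagy 2 were higher, beside the same 6.47%. Beside ATG8B, ATG8E had 1379, 1466 and 1511 at pH 4.6 and 927, 746 and 590 at pH 5.7 (0.96 ± 0.26), which was lost without pH 5.7 replicate 3.

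Genes bright in endodermis were also looked at as a class. Of 103 probe sets with an endodermis mean at least 4-fold above that in each other cell type, 5 were higher and 14 lower at pH 4.6, beside 6.47% and 4.77% of all probe sets. Their median log2 changes were -0.618 in endodermis and -1.496 in cortex, where those of all probe sets were -0.011 and 0.008. The median signals of the 103 on the endodermis arrays were 324.6, 637.1 and 580.3 at pH 4.6 and 543.5, 524.2 and 617.9 at pH 5.7. These groups overlapped, and pH 4.6 replicate 1 was the lowest array. For the 88 with an endodermis mean of at least 100 they were 396.5, 834.8 and 739.4 against 891.7, 930.0 and 1070.4, without overlap. In cortex 59 of the 103 were called lower, beside 4.99% of all probe sets. The class is defined by the means of the same arrays, so its counts are a description. Of 6 control sets with a 3 prime and a 5 prime probe set, the mean log2 ratio of 3 prime to 5 prime signal differed between pH 4.6 and pH 5.7 by -0.55 for the older GAPDH set (exact permutation test p = 0.1, the smallest that 3 against 3 arrays can give) and by -0.27 to 0.18 for the other 5 (exact p = 0.3 to 1.0).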
